A study of Homo sapiens with 11 samples.

Results

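Mirtrons are microRNAs (miRNAs) made from very short introns. The whole intron, once spliced out and debranched, folds into the hairpin that Dicer cuts, so the spliceosome takes the place of Drosha, the nuclease that frees most other miRNA hairpins. As a result, 1 end of each mirtron miRNA is set by a splice site, and its supply depends on the transcription and splicing of the host gene. Mature miRNAs, including mirtrons, are loaded into Argonaute and pair with target mRNAs mainly through their seed, which here means bases 2 to 8.

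The 10 mature miRNAs described here are grouped as classic splicing-derived human mirtrons: miR-877-5p, miR-877-3p, miR-1224-5p, miR-1225-5p, miR-1226-3p, miR-1226-5p, miR-1227-3p, miR-1229-3p, miR-1236-3p and miR-1237-3p (each with the prefix hsa in the tables). Whether each of them is made by splicing was not tested here. They were chosen by name from the 2576 miRNAs in the count tables and not by a cut on their values, but with earlier results of these data known. They come from 8 hairpins, and miR-877 and miR-1226 each give both arms, 5p from the 5′ side and 3p from the 3′ side of 1 precursor. Of the 10, 9 had at least 1 read in some library and 8 passed the filter on low counts in both experiments.

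Small RNA was sequenced from SH-SY5Y cells, a human neuroblastoma line subcloned from SK-N-SH that becomes neuron-like with all-trans retinoic acid (ATRA). All cells, controls included, received ATRA for 7 days. In co-treatment, 10 µM H2O2 was present during those 7 days (3 libraries, against 3 control libraries differentiated without H2O2). In pre-treatment, 10 µM H2O2 was given for 72 h before ATRA and then taken away (3 libraries, against 2 controls). The 11 libraries held between 5343953 and 8927582 counts (median 7425640), so that 3 reads, taken as the detection limit, correspond to 0.336 to 0.561 CPM (reads per library scaled so that libraries of unequal depth compare). This limit covers counting error only, and p-values measure the spread between libraries of a single clonal line. The pre-treatment controls differed from each other more than any other replicates did (Pearson r of log2 CPM over miRNAs of 0.934, against 0.975 to 0.990), and pre-treatment results that rest on 1 of them are therefore also given without it.

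The mature sequences, from the RefSeq miRNA table (GRCh38.p14), are printed 5′ to 3′ with the seed in capitals, because both their ends and their base composition bear on the results.
hsa-miR-877-5p: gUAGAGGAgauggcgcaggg
hsa-miR-1224-5p: gUGAGGACucgggaggugg
hsa-miR-1225-5p: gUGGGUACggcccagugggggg
hsa-miR-1226-5p: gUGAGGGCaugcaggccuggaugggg
hsa-miR-877-3p: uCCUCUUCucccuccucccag
hsa-miR-1226-3p: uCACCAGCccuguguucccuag
hsa-miR-1227-3p: cGUGCCACccuuuuccccag
hsa-miR-1229-3p: cUCUCACCacugcccucccacag
hsa-miR-1236-3p: cCUCUUCCccuugucucuccag
hsa-miR-1237-3p: uCCUUCUGcuccgucccccag
All 4 members of the 5p arm begin with gu, the bases of a 5′ splice site, and all 6 members of the 3p arm end with ag, the bases of a 3′ splice site. Among the 2262 miRNAs of the tables with a RefSeq sequence, 3.45% began with GU and 12.4% ended with AG. No seed was shared, within the group or with any other of these miRNAs. The seeds of miR-877-3p and miR-1236-3p nonetheless held the same 6-base word, CUCUUC, at bases 3 to 8 of the former and 2 to 7 of the latter. The members were rich in G and C, from 59.1% to 77.3% (median 65.1%), where the median over all sequences was 52.2%.

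In the GRCh37 (hg19) annotation of GENCODE, each of the 8 hairpins coincided base for base with 1 annotated intron, and each began with GU and ended with AG. MIR877 was an 86-base intron of ABCF1, a gene of translation initiation (chr6:30552109-30552194, plus strand). MIR1224 was an 85-base intron of VWA5B2 (chr3:183959193-183959277, plus strand). MIR1226 was a 75-base intron of DHX30, which encodes an RNA helicase (chr3:47891045-47891119, plus strand), and MIR1229, the shortest at 69 bases, lay in the glycosyltransferase gene MGAT4B (chr5:179225278-179225346, minus strand). MIR1225 was a 90-base intron of the polycystin gene PKD1 (chr16:2140196-2140285, minus strand) and MIR1227 an 88-base intron of PLEKHJ1 (chr19:2234061-2234148, minus strand). The longest, at 102 bases each, were MIR1236 in NELFE, a subunit of negative elongation factor (chr6:31924616-31924717, minus strand), and MIR1237 in the kinase gene RPS6KA4 (chr11:64136074-64136175, plus strand). Every 5p member started at intron base 1 and every 3p member ended at the last intron base, as the map of arms within introns shows.

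**Figure D1:**
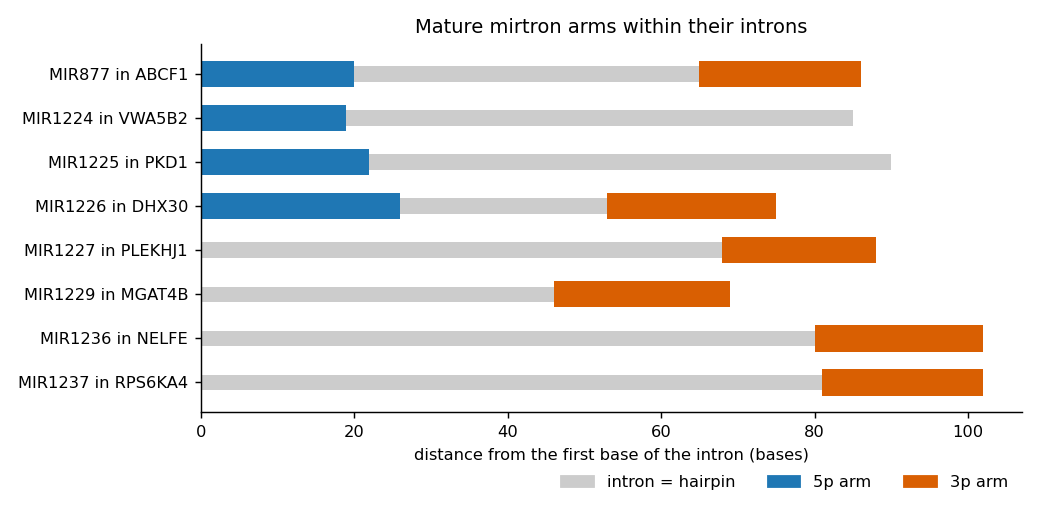
Position of the mature mirtrons within their introns, in bases from the first base of the intron. Grey bars are the introns, 69 to 102 bases long, which coincide with the annotated hairpins, and the coloured blocks are the 5p and 3p arms among the 10 members. All blue blocks touch the first base and all orange blocks touch the last.

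The mirtrons ranged from moderately abundant miRNAs down to one without a read. Levels are CPM after TMM scaling. Exceptions are the detection limit above and the levels of cell type marker lists, miR-122-5p included, which are CPM by library size alone. Ranks between different miRNAs compare their reads only, because how evenly different sequences were captured was not tested. miR-877-5p had the highest mean over the 11 libraries, 355.6 CPM (rank 133 of 2576), followed by miR-1226-3p with 299.7 CPM (rank 143) and miR-1224-5p with 131.7 CPM (rank 184). miR-1227-3p (14.4 CPM) and miR-1229-3p (12.4 CPM) formed a middle pair, and miR-877-3p (4.78 CPM), miR-1237-3p (2.51 CPM) and miR-1236-3p (2.1 CPM) were low. These means hide that several neighbours changed places between libraries. miR-877-5p had more reads than miR-1226-3p in 5 of 11 libraries, among them all 3 co-treatment controls, and fewer in the other 6, among them all 3 H2O2 libraries of pre-treatment. miR-1227-3p exceeded miR-1229-3p in 4 of 11 libraries, and miR-1237-3p exceeded miR-1236-3p in 5. miR-1224-5p, by contrast, was above miR-1227-3p in 11 of 11.

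A pair of members could not be compared at this depth. miR-1225-5p had 0 reads in every library, which allows up to 0.336 to 0.561 CPM. miR-1226-5p, the minor arm of its hairpin, had 1, 2 and 0 reads in co-treatment controls and 3, 1 and 0 with H2O2. In pre-treatment it had 1 and 6 reads in controls and 0, 3 and 0 with H2O2. No fold change is given for either.

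**Figure D2:**
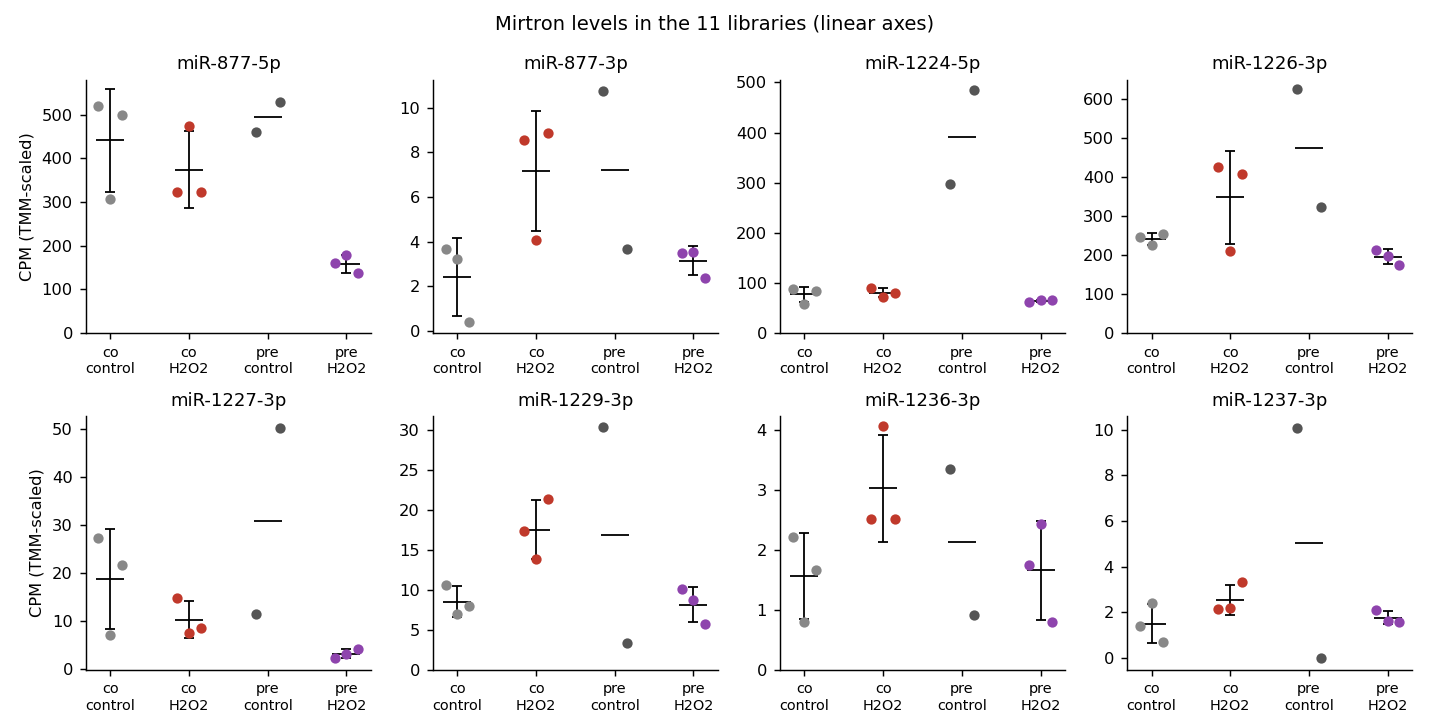
Level of each of the 8 tested mirtrons in every library, in TMM-scaled CPM within its experiment (linear axes, each panel with its own scale). Points are libraries, horizontal lines are group means and bars are ± SD, drawn only for groups of 3. The pre-treatment controls of miR-1229-3p and miR-1237-3p lie on opposite sides of their H2O2 libraries, whereas those of miR-877-5p and miR-1224-5p both lie far above.

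Pre-treatment asked what H2O2 given before differentiation left behind after 7 days of ATRA. Of the 8 tested mirtrons, 4 fell: miR-1224-5p, miR-1227-3p, miR-877-5p and miR-1226-3p, the last named having the smallest change of these. A call needed an FDR, the Benjamini-Hochberg adjusted p of edgeR's exact test, under 0.05 and a log2 fold change (log2FC) beyond 0.6 in size. Of the 868 miRNAs tested, 15.3% were called, 9.91% lower and 5.41% higher. All 8 fitted log2FC were below 0, with a median of -1.39, where the median over all 868 miRNAs was -0.19. The median over the 8 was -0.43 without control 1, with 3 members above 0 and 2 of them called higher, and -1.85 without control 2. Groups did not overlap, with H2O2 lower, for 5 members (miR-877-3p was the fifth), a pattern that 22.7% of all miRNAs showed, where 46.0% had groups without overlap in either direction. The 8 values are not independent evidence, because they share libraries and 2 of them share a hairpin.

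miR-1224-5p stood at 298 and 484 CPM in the pre-treatment controls and at 62.1, 65.5 and 66.2 CPM in the H2O2 libraries. The H2O2 libraries lay close together, and both controls were several times higher. The mean fell from 391 ± 132 CPM (SD, n = 2) to 64.6 ± 2.18 CPM (SD, n = 3), a 6.05-fold lower level (log2FC of -2.60, SE 0.31, adjusted p = 4.16e-08 in edgeR's exact test). It was called in 5 of 5 fits that each left out 1 library, with log2FC between -2.86 and -2.23. The H2O2 libraries were also the nearest to co-treatment, where all 6 libraries lay between 58.8 and 90.1 CPM, so it was the pre-treatment controls that stood apart in raw reads (2217 and 3174, against 428 to 789 in the other 9 libraries). The pre-treatment controls and the other libraries come from different experiments in part, and experiment and batch cannot be told apart.

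miR-877-5p, the ABCF1 mirtron and the most abundant of the group, was at 460 and 529 CPM in controls and at 160, 178 and 137 CPM after H2O2. Both controls lay far above the highest H2O2 library. The mean went from 495 ± 48.3 CPM (SD, n = 2) to 158 ± 20.6 CPM (SD, n = 3), 3.12-fold lower (log2FC of -1.64, SE 0.26, adjusted p = 3.69e-04, exact test of edgeR). The size barely depended on the control used (-1.69 without control 1 and -1.57 without control 2), but the call was lost without any 1 of the 3 H2O2 libraries (log2FC of -1.67 to -1.54, adjusted p of 0.0602 to 0.0828 in edgeR's exact test).

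miR-1227-3p, from PLEKHJ1, had 11.5 and 50.3 CPM in controls and 2.22, 3.12 and 4.11 CPM after H2O2. All H2O2 libraries were below both controls, which themselves were far apart. The level was 9.78-fold lower (30.9 ± 27.4 against 3.15 ± 0.945 CPM, SD, n = 2 and 3), with a log2FC of -3.29 (SE 0.64, adjusted p = 2.55e-04, edgeR's exact test). The log2FC was -3.96 without control 1 and -1.90 without control 2, and the call was lost without H2O2 library 2 (adjusted p = 0.0551 in edgeR's exact test).

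miR-1226-3p, from DHX30, had 626 and 321 CPM in controls and 212, 198 and 175 CPM after H2O2. The groups did not overlap, but control 1 was well above control 2. The fall was 2.43-fold (474 ± 215 to 195 ± 19.1 CPM, SD, n = 2 and 3), with a log2FC of -1.28 (SE 0.34, adjusted p = 0.0219, edgeR's exact test). Without control 1 it was -0.68, without control 2 it was -1.71, and the call was lost without any 1 of the H2O2 libraries. In edgeR's quasi-likelihood test, in which 1.96% of miRNAs were called, miR-1224-5p and miR-877-5p remained called, while miR-1227-3p (adjusted p = 0.0520) and miR-1226-3p (adjusted p = 0.0660) did not.

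The 4 remaining members did not pass the test in pre-treatment, and for 3 of them the direction depended on a single control. miR-1229-3p had 30.3 and 3.36 CPM in controls and 10.1, 8.68 and 5.70 CPM after H2O2, so that the H2O2 libraries lay between the controls. Its log2FC was -1.05 (SE 0.78, adjusted p = 0.406, edgeR's exact test). When control 1 was dropped it was 1.32, and when control 2 was dropped it was -1.92, called in both of these fits and in opposite directions. miR-1236-3p (25 and 6 reads in controls, 15, 18 and 6 after H2O2) had a log2FC of -0.37 (SE 0.72, adjusted p = 0.792, edgeR's exact test) that became 0.89 without control 1.

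miR-1237-3p had 75 and 0 reads in controls and 18, 12 and 12 after H2O2. Its H2O2 libraries again lay between the controls, with a log2FC of -1.50 (SE 1.21, adjusted p = 0.471, edgeR's exact test). Against control 2 alone, taken at the limit of 3 reads in that library, H2O2 was at least 3.88-fold higher. miR-877-3p, the minor arm of the ABCF1 mirtron, had 10.7 and 3.66 CPM in controls and 3.51, 3.52 and 2.39 CPM after H2O2. The groups just failed to touch, and its log2FC of -1.20 (SE 0.52, adjusted p = 0.167, edgeR's exact test) shrank to -0.17 without control 1.

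Control 1 also differed in miRNAs known from other cell types, mostly through 1 miRNA of each list. The summed level of 5 miRNAs of white blood cells (5 of 5 in the tables, none at 0 in this library) was 121 CPM in control 1 and 10.5 to 23.3 CPM in the other 10 libraries. Of its 842 reads, 540 were miR-223-3p, which had 3 to 35 reads elsewhere. miR-142-3p (182 reads, 24 to 100 elsewhere) and miR-142-5p (85 reads, 7 to 46 elsewhere) were also highest in this library. miR-150-5p, with 33 reads, lay within the range of the other libraries. The sum of 5 epithelial miRNAs (5 of 6 on the list were in the tables, none at 0) was 188 CPM against 39.1 to 53.4 CPM. Here miR-205-5p gave 1007 of 1301 reads (10 to 32 elsewhere), whereas miR-200a-3p and miR-200b-3p, with 22 and 15 reads, were among their lowest. The part of these differences in the mirtron values was not tested. Without this library the log2FC was -2.86 for miR-1224-5p, -1.69 for miR-877-5p, -3.96 for miR-1227-3p and -0.68 for miR-1226-3p.

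The sums of other marker lists differed between the pre-treatment groups themselves, and the neuronal sum differed in co-treatment as well, in the other direction. The neuronal miRNAs (8 of 9 in the tables, with miR-124-3p at 0 to 7 reads) summed to 15460 CPM in control 1 and 25920 CPM in control 2, below the 31100 to 37040 CPM after H2O2. This sum was mostly miR-137 (77318 of 107232 reads in control 1), which was not called (log2FC of 0.88, adjusted p = 0.150 in edgeR's exact test). Of the 7 neuronal miRNAs tested in pre-treatment, 0 were called higher. miR-375 of the same list was called lower after H2O2 (log2FC of -1.32, adjusted p = 0.0168 in edgeR's exact test). The 4 miRNAs of red blood cells summed to 2.16 and 3.43 CPM in controls and 10.4 to 14.5 CPM after H2O2, and the liver miRNA miR-122-5p stood at 99.3 and 235 CPM in controls and 547 to 786 CPM after H2O2. miR-451a and miR-144-5p of red blood cells and miR-122-5p were called higher. miR-486-5p of red blood cells was not (log2FC of -0.48, adjusted p = 0.738 in edgeR's exact test), and it was called higher in co-treatment (log2FC of 2.53). The part of these lists in the mirtron values was not tested either, and in bulk samples fewer cells of a type and less RNA per cell cannot be told apart.

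**Figure D3:**
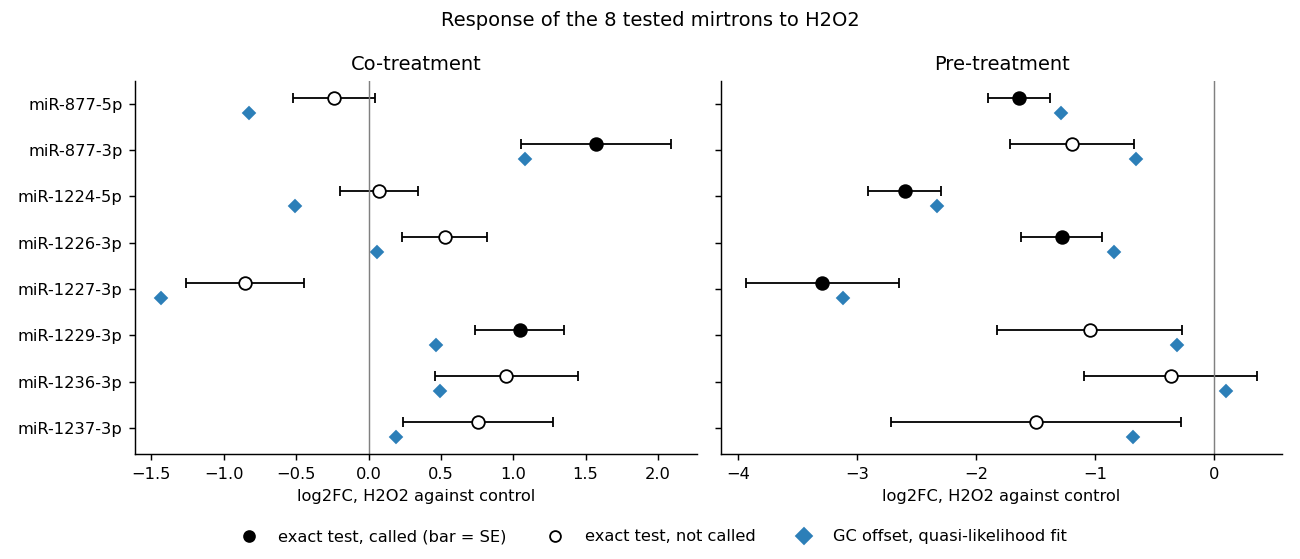
Response of the 8 tested mirtrons, as log2FC of H2O2 against control in co-treatment (3 against 3 libraries) and pre-treatment (3 against 2); the axes of the panels differ. Circles are edgeR's estimates with SE bars, filled where called by the exact test, and diamonds are the estimates after an offset for GC content. In pre-treatment all circles lie below 0, from -3.29 to -0.37, and in co-treatment 6 of 8 lie above 0.

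Co-treatment asked what H2O2 did while the cells differentiated. Here 2 mirtrons rose, miR-877-3p and miR-1229-3p, and no member was called lower by edgeR's exact test, its quasi-likelihood test or DESeq2. Over all 790 miRNAs tested, 26.2% were called, 10.6% higher and 15.6% lower. The fitted log2FC was above 0 for 6 of the 8 members and below 0 for 2, with a median of 0.64 against -0.04 over all miRNAs. Groups did not overlap, with H2O2 higher, for 3 members, as for 19.5% of all miRNAs, and 41.6% of all had groups without overlap in either direction.

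miR-877-3p was at 3.65, 3.21 and 0.415 CPM in controls and at 8.56, 4.07 and 8.89 CPM with H2O2. The control libraries all lay below the H2O2 libraries, 1 of them with only 3 reads. The mean rose 2.98-fold (2.42 ± 1.75 to 7.17 ± 2.70 CPM, SD, n = 3 each), with a log2FC of 1.57 (SE 0.52, adjusted p = 0.0188, edgeR's exact test). The call rested on few reads and was kept in 3 of 6 fits without 1 library. It was lost without control 3, H2O2 library 1 or H2O2 library 3 (log2FC of 1.16, 1.48 and 1.43).

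miR-1229-3p, from MGAT4B, was at 10.6, 6.95 and 8.02 CPM in controls and at 17.4, 13.9 and 21.4 CPM with H2O2. All H2O2 libraries were above all controls. The rise was 2.06-fold (8.53 ± 1.90 to 17.5 ± 3.74 CPM, SD, n = 3 each), with a log2FC of 1.04 (SE 0.31, adjusted p = 0.0108, edgeR's exact test). It was kept in 5 of 6 fits without 1 library and lost without H2O2 library 3 (log2FC of 0.91).

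The other members did not pass. miR-1236-3p had 14, 6 and 12 reads in controls and 22, 24 and 19 with H2O2, without overlap in CPM, and a log2FC of 0.95 (SE 0.49, adjusted p = 0.132 in edgeR's exact test). miR-1227-3p had 27.3, 7.08 and 21.7 CPM in controls and 14.7, 7.45 and 8.62 CPM with H2O2. Its groups overlapped through control 2, and its log2FC of -0.85 (SE 0.41, adjusted p = 0.118, edgeR's exact test) became -1.24 and was called when that library was left out. It was the sole member with an unadjusted p under 0.05 that was not called (p = 0.0466, exact test of edgeR), a level that 40.1% of all miRNAs reached.

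The 3 most abundant mirtrons did not pass the test in co-treatment either. miR-1226-3p had 245, 225 and 253 CPM in controls and 425, 210 and 407 CPM with H2O2, so that 2 of the H2O2 libraries were high and the third below all controls. Its log2FC was 0.53 (SE 0.29, adjusted p = 0.185, edgeR's exact test) and passed the test, at 0.88, without H2O2 library 2. miR-877-5p had a log2FC of -0.24 (SE 0.29) and miR-1224-5p of 0.07 (SE 0.27), both with overlapping groups. miR-1237-3p, with 5 to 18 reads in controls and 13 to 25 with H2O2, had a log2FC of 0.75 (SE 0.52).

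The timing of H2O2 was compared directly through the difference between both responses, pre-treatment minus co-treatment, in 1 quasi-likelihood fit of all 11 libraries. For 5 of the 8 mirtrons the pre-treatment response was the lower one, beside 27.3% of 945 miRNAs called in either direction and 14.4% in this direction. The difference in log2FC was -2.63 (SE 0.41, adjusted p = 0.00106 in edgeR's quasi-likelihood test) for miR-1224-5p and -1.81 (SE 0.48, adjusted p = 0.0125) for miR-1226-3p, and both were called in 11 of 11 fits without 1 library. It was -2.81 (SE 0.84, adjusted p = 0.0229) for miR-877-3p, which was called in co-treatment and not in pre-treatment, and -1.38 (SE 0.42, adjusted p = 0.0248) for miR-877-5p, which was lowered in pre-treatment. These 2 calls were kept in 8 and 9 of the 11 fits.

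miR-1227-3p differed by -2.36 (SE 0.80, adjusted p = 0.0379, edgeR's quasi-likelihood test), but this was called in only 4 of 11 fits without 1 library and was -1.03 without pre-treatment control 2. miR-1229-3p (-2.12, adjusted p = 0.0610), miR-1237-3p (-2.32, adjusted p = 0.185) and miR-1236-3p (-1.33, adjusted p = 0.269) did not pass the same test of edgeR. Without pre-treatment control 1, the difference for miR-1229-3p was 0.11.

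Base composition moved with the response of all miRNAs, not just of the mirtrons. Across miRNAs, which share libraries and are not replicates, log2FC correlated with the GC content of the mature sequence at r = 0.556 in co-treatment (n = 700) and at r = -0.408 in pre-treatment (n = 768). Dropping pre-treatment control 1 brought the latter to -0.0289, and dropping control 2 brought it to -0.471. The mirtrons lie at the GC-rich end, with 6 of the 8 tested members at 60% or more. Among other miRNAs of at least 60% GC, the median log2FC was 0.65 in co-treatment (n = 141), with 30.5% called higher, and -0.80 in pre-treatment (n = 168), with 14.9% called lower. The latter median was 0.19 without control 1 and -1.20 without control 2. The mirtron medians of 0.64 and -1.39 are to be read beside these values.

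When the trend on GC content was fitted in every library and entered as an offset, the median over the 8 mirtrons was 0.13 in co-treatment and -0.76 in pre-treatment. Among other miRNAs of at least 60% GC, the median with the offset was 0.09 in co-treatment and -0.30 in pre-treatment. In co-treatment the log2FC of miR-1229-3p became 0.46 and that of miR-877-3p 1.08, and neither was called any longer by edgeR's quasi-likelihood test, whereas miR-1227-3p became -1.44 and was called lower (adjusted p = 0.0429). In pre-treatment the falls of miR-1224-5p (log2FC of -2.33) and miR-1227-3p (-3.12) kept most of their size, and those of miR-877-5p and miR-1226-3p were -1.29 and -0.84. Their adjusted p then lay between 0.0639 and 0.0823 in edgeR's quasi-likelihood test, in a fit that called 2 miRNAs in all. Of the differences between the experiments, that of miR-1224-5p was the only one among the members still called with the offset.

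**Figure D4:**
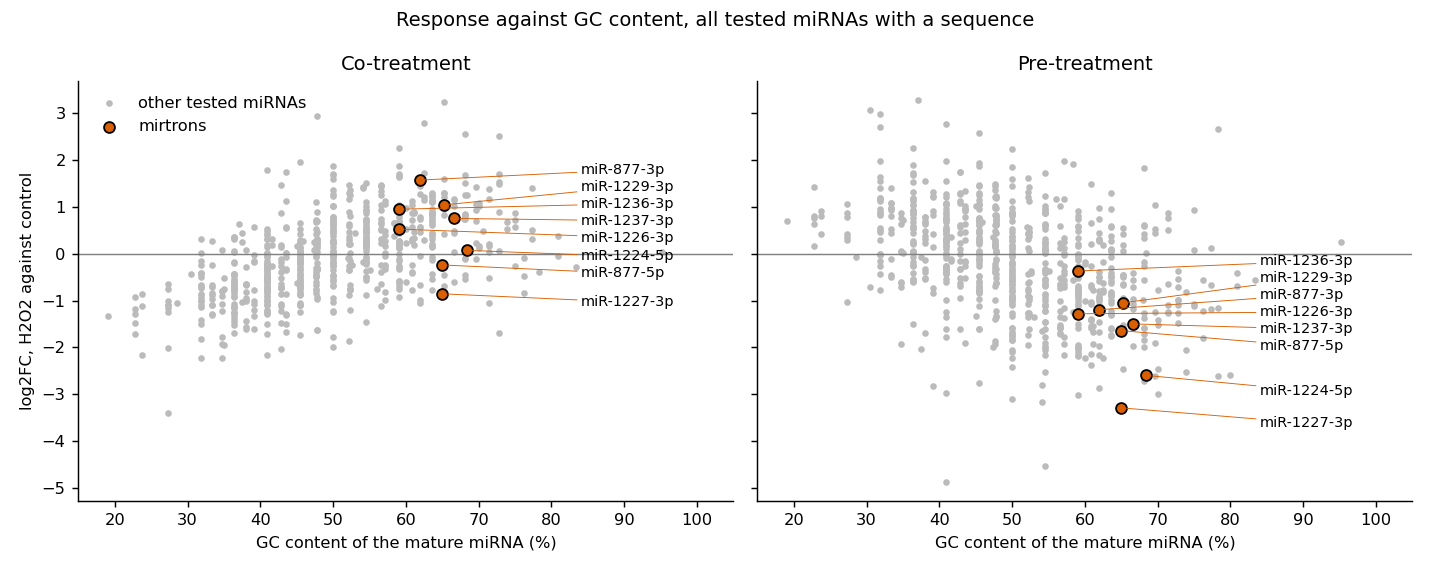
log2FC of H2O2 against control for every tested miRNA with a RefSeq sequence (700 in co-treatment, 768 in pre-treatment), against the GC content of its mature sequence in percent. Grey points are other miRNAs and orange points are the 8 mirtrons. In pre-treatment miR-1227-3p and miR-1224-5p lie at the lower edge of the miRNAs of like GC content, and in co-treatment the mirtrons lie among them.

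Both arms of a hairpin are counted in the same library, so their ratio does not depend on library scaling. miR-877 was mostly read from its 5p arm. The co-treatment controls held 3272 and 23, 2291 and 24, and 3609 and 3 reads of 5p and 3p, and the H2O2 libraries 2839 and 75, 2806 and 24, and 2437 and 67. The 5p arm was therefore read 37.9, 117 and 36.4 times as often as the 3p arm with H2O2 and 142 and 95.5 times in the first 2 controls. The log2 ratio differed by -2.14 between the groups, which overlapped. Without control 3, with its 3 reads of the 3p arm, the difference was -1.085. An exact two-sided permutation test over all libraries gave p = 0.2, and 0.8 after Benjamini-Hochberg adjustment over 4 tests. The smallest p that this test can give is 0.1 with 3 against 3 libraries, and it is larger with 3 against 2. In pre-treatment the ratios were 42.9 and 144 in controls and 45.5, 50.7 and 57.6 after H2O2, so that the H2O2 libraries lay between the controls (difference of -0.64 on the log2 scale, exact permutation p = 0.8). The arms of miR-1226 differed by 0.36 and 0.66 between groups in log2 ratio of 3p to 5p (exact permutation p = 0.6 for each), and these values rest on 0 to 6 reads of the 5p arm.

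miR-1224, whose 3p arm is no member, was looked at in the same way after its values had been seen, and gets no test. The 5p arm was read 3.40 to 4.07 times as often as the 3p arm in co-treatment controls, 2.50 to 3.40 times with H2O2 and 2.64 to 3.90 times in pre-treatment with H2O2. The pre-treatment controls gave 4.55 and 28.6. Control 2, in which miR-1224-5p had 3174 reads, had 111 reads of miR-1224-3p, and control 1 had 2217 and 487. Control 2 thus had the most reads of the 5p arm and far fewer of the 3p arm than control 1. With 201, 166 and 128 reads after H2O2, the 3p arm had a log2FC of -0.97 (SE 0.55, adjusted p = 0.284 in edgeR's exact test), beside -2.60 for the 5p arm, and the difference between the arms was not tested.

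**Figure D5:**
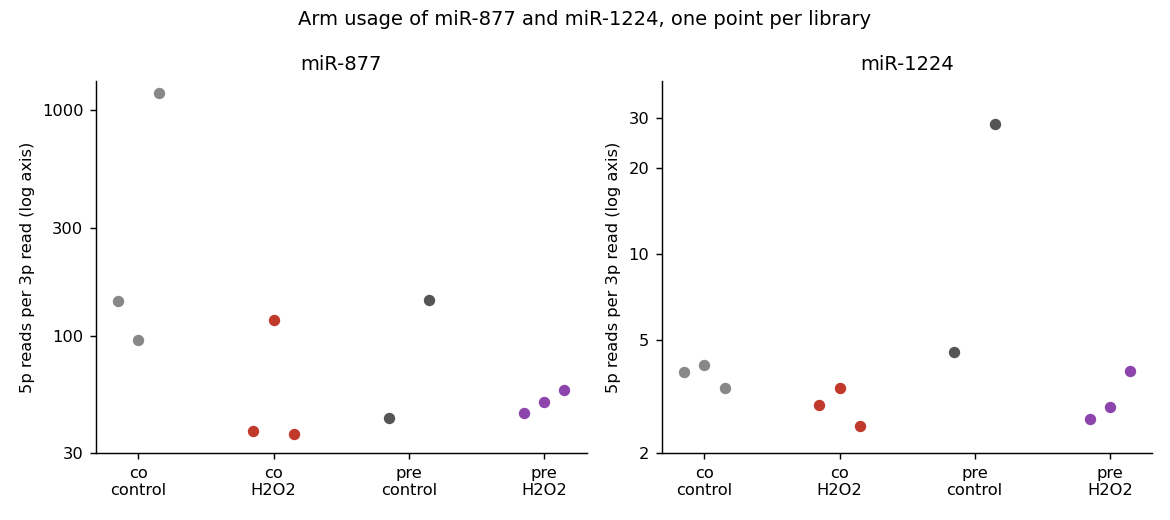
Reads of the 5p arm per read of the 3p arm for miR-877 and miR-1224 (log axes), 1 point per library. For miR-1224 pre-treatment control 2, at 28.6, lies far from the other 10 libraries, at 2.50 to 4.55, and the highest point for miR-877, a co-treatment control, rests on 3 reads of the 3p arm.

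Few other miRNAs from such introns were abundant enough to be tested. Of the 6 opposite arms of the members' hairpins, miR-1224-3p and miR-1236-5p were tested and neither was called in either experiment. The annotation holds 49 miRNA genes (of 3049) whose ends both lie within 10 bases of the ends of an intron of at most 150 bases, and they give 20 further mature miRNAs that the tables hold and RefSeq gives a sequence for, the opposite arms included. Of these, 5 were tested and 0 were called by edgeR's exact test, its quasi-likelihood test or DESeq2, with 0 and 2 at an unadjusted p under 0.05 in co-treatment and pre-treatment. Over all miRNAs 40.1% and 28.6% reached this level, so nothing is read from these counts. Their median log2FC was 0.31 in co-treatment and -1.23 in pre-treatment. The most abundant were miR-1224-3p (26.5 CPM over all libraries), miR-3620-3p (6.54 CPM, log2FC of -0.44 and -1.58) and miR-1236-5p (2.92 CPM, log2FC of 0.31 and -1.45). Among them, miR-1228 and miR-1238 of the same number series gave 4 miRNAs, of which both arms of miR-1228 were tested and not called. MIR1234, an 84-base intron of CPSF1, was not matched to a RefSeq sequence, so miR-1234-3p is not among the 20. The difference in response of miR-1234-3p was -0.86 (adjusted p = 0.560, edgeR's quasi-likelihood test).

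Finally, the members did not move as 1 block. Over the 11 libraries, which mix conditions and experiments, 19 of 28 pairs of tested members had a Pearson r of log2 CPM above 0. The share over pairs of other miRNAs was not computed, so this count cannot be set against it. miR-877-5p went with miR-1227-3p (r = 0.846) and hardly with miR-877-3p, the other arm of its own hairpin (r = -0.0138). miR-1229-3p went with miR-1237-3p (r = 0.858) and miR-1236-3p (r = 0.819). Each of these had far more reads in pre-treatment control 1 than in control 2 (226 and 22, 75 and 0, and 25 and 6). The 5 miRNAs outside the group whose levels were most like those of miR-877-5p, of 756 compared, were miR-145-5p (r = 0.928), let-7d-3p (0.925), miR-675-3p (0.922), miR-629-3p (0.913) and miR-129-1-3p (0.909). They were picked by this correlation over the same libraries, so their own responses are not given as a result.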

How the data were processed

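Counts of mature miRNAs were deposited by the authors as raw reads, without normalization. Per the methods and labels, the reads (QIAseq miRNA kit, NextSeq) were trimmed with Cutadapt 2.10 (quality check with FastQC 0.11.8), aligned to hg19 with Bowtie2 2.4.1 and counted with htseq-count 0.7.2. The miRBase release and the use of molecular identifiers are not given in the sources used here. The authors' deposited comparison tables (log2 fold changes, mean log2 CPM, p-values and FDR made with edgeR 3.6.1) were not used.

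Groups came from the sample labels. The experiments are described as triplicates with 1 outlier taken out, and a further pre-treatment control is not analysed here. In each experiment, H2O2 was compared with control by the exact test of edgeR 4.0.16 (R 4.3.3) with TMM scaling, for miRNAs whose CPM exceeded what 5 counts are in the smallest library (0.936 in co-treatment and 0.721 in pre-treatment, in at least 3 and 2 libraries), and p-values were adjusted by Benjamini-Hochberg over all miRNAs tested. Standard errors and the difference in response came from edgeR's quasi-likelihood fit. Alternatives were the quasi-likelihood test, DESeq2 1.42.0, other scalings and filters, a joint fit, a loess trend on GC content (span 0.5) as offset, the replicate number as a block, and each library left out in turn; a lone pre-treatment control was then assumed to vary like the H2O2 libraries. GC content was known for 88.6%, 88.5% and 89.1% of miRNAs tested in co-treatment, pre-treatment and both. Arm ratios used log2 of counts plus 0.5. The tests were also run on simulated data with the same spread in all groups. The unequal pre-treatment controls do not match that setting, so those runs do not show how the tests behave there.

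All members are named, with lists given by counts and a few values: opposite arms, miR-1228 and miR-1238, other short-intron miRNAs (the 3 most abundant), the 5 nearest neighbours of the most abundant member, and cell type markers. The members and lists were chosen with earlier results of these data known. Muscle miRNAs summed to 0.577 to 3.72 CPM over all libraries. In co-treatment the neuronal sum was 33620 to 41630 CPM in controls and 18910 to 22500 CPM with H2O2. Of its 7 tested miRNAs, 3 were called lower there by edgeR's exact test (miR-137, miR-9-5p and miR-218-5p) and 0 higher. The part of this in the mirtron values was not tested.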

Additional observations from a re-analysis of the deposited data

Results flagged for a closer look

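For 5 mirtrons the response to H2O2 differed between pre-treatment and co-treatment in the test of the difference itself, edgeR's quasi-likelihood test over all 11 libraries. Pre-treatment minus co-treatment log2FC was -2.63 for miR-1224-5p, -1.81 for miR-1226-3p, -2.81 for miR-877-3p, -1.38 for miR-877-5p and -2.36 for miR-1227-3p. With the offset for GC content, miR-1224-5p alone of these was still called. Without pre-treatment control 2, that of miR-1227-3p was -1.03, and without pre-treatment control 1, that of miR-877-3p was -1.94 and not called. Both experiments have their own controls, so experiment and any batch cannot be told apart. Groups of 2 and 3 libraries are too small for a search for single outlying libraries.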

How the results depend on the processing

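DESeq2, library size or RLE scaling and TMM gave the same calls of members within each experiment. In co-treatment, 207 miRNAs and 2 members were called. A filter in every library left 1 member, the joint quasi-likelihood fit 84 miRNAs and 0 members, and the GC offset 53 and 1 (another member), beside 153 and 2 in the same quasi-likelihood fit of miRNAs with a known GC content without the offset. Of calls, 40.6% were higher, against 50.5% with library size and 56.9% with the filter in every library. In pre-treatment, 133 miRNAs and 4 members were called. The quasi-likelihood test gave 17 and 2, no filter 61 miRNAs, the fit of miRNAs with a known GC content but no offset 12 and 2, and that with the offset 2 and 0. For the difference in response (258 and 5), the GC offset gave 88 and 1.

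Replicate numbers gave no clear sign of paired libraries (correlations of same-numbered deviations of -0.162 to 0.0438 in co-treatment, and 0.236 and -0.032 in pre-treatment). The deviations of the 2 pre-treatment controls from their mean mirror each other, so this check cannot settle whether those libraries were paired. With the replicate block, 111 miRNAs and 0 members were called in co-treatment and 14 and 2 in pre-treatment, and with the block and the GC offset 0 and 0 in both.

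Leaving out 1 library gave 98 to 279 miRNAs and 0 to 3 members in co-treatment, 9 to 449 and 1 to 7 in pre-treatment, and 164 to 444 and 2 to 7 for the difference. In pre-treatment, 7 members were called without control 2 and 1 without H2O2 library 2. Arm ratio differences ranged from -2.82 to -1.09 and from -1.50 to 0.23 (miR-877), and from -0.54 to 1.07 and from -0.97 to 2.29 (miR-1226), in co-treatment and pre-treatment.

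The log2FC of members turned in sign as follows. For miR-1224-5p in co-treatment it was -0.51 with the GC offset, -0.50 with block and offset and -0.085 to 0.25 over fits without 1 library (lowest without control 2). In pre-treatment, miR-1236-3p was at 0.10 with the offset, 0.14 with the block, 0.50 with both and -1.03 to 0.89 without 1 library. miR-1229-3p was at 0.21 with block and offset and -1.92 to 1.32 without 1 library, and miR-1237-3p at 0.24 and -2.51 to 6.77, the last a fitted value against a control at 0 reads and no bound. These highest values were those without control 1. The difference in response ranged from -2.97 to 0.11 for miR-1229-3p and from -3.29 to 5.92 for miR-1237-3p, highest without pre-treatment control 1. Of the other alternatives for single members, 315 kept direction and side of the threshold, 51 lost the call and 14 gained it. The cause was not tested. Depth limits miR-1225-5p and miR-1226-5p, which could not be compared.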
